A study of Mus musculus with 40 samples.

Results

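The genes described here carry or restrain the signals that myostatin, the activins and the bone morphogenetic proteins (BMPs) send to muscle. They were chosen by name, as the rows of the deposited tables called Mstn, Gdf11, Gdf5, Acvr2a, Acvr2b, Fst, Fstl3, Smad3, Smad7 and Id1, which makes 10 genes of 22844 in all. Each name had 1 row, and all 10 are annotated as protein-coding. Messenger RNA was sequenced from the whole EDL (extensor digitorum longus), a fast muscle of the lower hindlimb, with 5 mice per group and 1 library per mouse.

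All mice were of strain Tsc1tm1Djk/J, which carries a floxed Tsc1 allele. Controls (CON) were Tsc1fl/fl littermates without Cre recombinase, and TSCmKO mice had lost Tsc1 in skeletal muscle fibers, which leaves the growth-promoting kinase complex mTORC1 active there. The promoter that drove Cre is not given in the sources used here. Vehicle-treated groups were 3mCON and 3mTSCmKO at 3 months of age and 9mCON and 9mTSCmKO at 9 months. The same 4 kinds of mice treated with rapamycin (RM), an mTORC1 inhibitor, formed 3mCON+RM, 3mTSCmKO+RM, 9mCON+RM and 9mTSCmKO+RM. Vehicle or RM was injected intraperitoneally for 3 days, and the labels give 4 mg per kg of RM. The study's text gives a higher daily dose, so the dose is uncertain.

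Myostatin and GDF11 are closely related secreted proteins that bind the activin type II receptors ACVR2A and ACVR2B and act through SMAD2 and SMAD3 to limit muscle mass. GDF5 and the BMPs use partly the same type II receptors but act through SMAD1, SMAD5 and SMAD9, and this arm favours muscle mass, in denervated muscle in particular. Both arms share SMAD4. Follistatin (FST) and FSTL3 bind and block activins, myostatin and GDF11, SMAD7 is an inhibitory SMAD, and Id1 is a classical transcriptional target of the BMP arm.

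The promoters of 6 of the 10 genes were in the RefSeq promoter table (build GRCm38.p6): Mstn, Gdf11, Acvr2a, Acvr2b, Fstl3 and Smad3. The 250 bases before the start of Mstn, Gdf11 and Smad3 are shown because these are a pair of related ligands and a SMAD that all fell in 9mTSCmKO muscle. Capitals mark every match to TATAAA, the TATA box core, or to CANNTG, the E-box bound by myogenic factors, on either strand. Positions are Mstn chr1:53061390-53061639 on the plus strand, Gdf11 chr10:128891719-128891968 on the minus strand and Smad3 chr9:63757995-63758244 on the minus strand.
Mstn: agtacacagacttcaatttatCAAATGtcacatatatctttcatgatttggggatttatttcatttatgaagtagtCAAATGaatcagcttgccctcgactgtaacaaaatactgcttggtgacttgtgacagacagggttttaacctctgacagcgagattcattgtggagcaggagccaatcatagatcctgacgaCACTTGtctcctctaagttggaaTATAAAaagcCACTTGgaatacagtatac
Gdf11: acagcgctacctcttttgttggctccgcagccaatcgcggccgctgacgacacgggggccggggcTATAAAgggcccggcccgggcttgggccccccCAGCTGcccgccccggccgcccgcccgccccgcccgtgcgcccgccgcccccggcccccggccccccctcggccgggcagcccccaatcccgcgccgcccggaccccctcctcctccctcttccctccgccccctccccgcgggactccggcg
Smad3: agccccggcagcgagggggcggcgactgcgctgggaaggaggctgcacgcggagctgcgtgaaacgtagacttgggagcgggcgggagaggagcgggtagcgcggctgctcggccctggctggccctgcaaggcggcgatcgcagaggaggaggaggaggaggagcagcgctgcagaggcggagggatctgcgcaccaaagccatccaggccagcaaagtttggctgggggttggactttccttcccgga

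The 3 windows differed in composition. The Mstn window was 38.4% G and C, lower than most of the 32851 promoters in the table, whose median was 52.4%, while Gdf11 had 81.2% and Smad3 had 69.2%. Mstn had TATAAA 29 bases before its start and 4 matches to CANNTG. Gdf11 had TATAAA 185 bases before its start and 1 match to CANNTG, and Smad3 had neither. Of all promoters over the same length, 12.4% held TATAAA and 66.2% held CANNTG, so the E-box match is common. The match in Gdf11 was CAGCTG, a form of CANNTG held by 13% of promoters. No match to the FoxO site TGTTTAC, held by 3.17% of promoters, was found in these 3 windows. The letters alone say nothing of which factor binds.

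Levels are given as CPM (counts scaled to the size of the library) after TMM scaling, a correction for library composition, and comparisons between genes are given as TPM, which divides by transcript length. Libraries held between 8883870 and 35224669 counts. A gene was called when edgeR's quasi-likelihood test, fitted to all 40 libraries and 13543 genes, gave a Benjamini-Hochberg adjusted p under 0.05. All adjusted p-values below are from this fit unless another is named. Tsc1 was lower in TSCmKO muscle at both ages, by 3.98-fold at 3 months and 2.92-fold at 9 months (adjusted p = 2.49e-11 and 2.33e-09), with no overlap between genotypes within an age and treatment. The fiber marker genes were abundant in every library, as the labelled tissue requires. Their summed level was 135906 to 146942 TPM in 9mTSCmKO and 178235 to 197203 TPM in 9mCON. Fewer fibers, less RNA per fiber and other reasons for this difference cannot be told apart in whole muscle. The library inserts recorded in the labels averaged 175 to 239 nt in 3-month mice and were longer, 223 to 308 nt, in 9-month mice, so age and library preparation cannot be told apart either.

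Of the 10 genes, 9 passed the filter on low counts (1 CPM in 5 or more libraries), and Gdf5 did not. In 9mTSCmKO against 9mCON, 5 of the 9 were called, with 37.9% of all tested genes called in that comparison. Mstn, Gdf11, Fst and Smad3 fell, beside 18.9% of all genes called lower, and Smad7 rose, beside 19.1% called higher. The 9 genes' median log2 fold change was -0.31 and that of all genes was -0.02. Of the 8 fiber markers, 4 fell in the same comparison (Acta1, Ckm, Myh4 and Atp2a1) and 0 rose. Of the 5 macrophage markers, Cd68 rose and 0 fell. The part of these shifts in the values of the 9 genes was not tested. In 3mTSCmKO against 3mCON, 2 of the 9 were called, Fst and Smad3, both lower, beside 19.8% of all genes. The median was 0.00 over the 9 genes and -0.02 over all genes.

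RM in TSCmKO muscle moved Fst and Smad3 at both ages. In 9mTSCmKO+RM against 9mTSCmKO, 3 of the 9 genes were called beside 32.6% of all genes: Fst and Smad3 rose and Smad7 fell. In 3mTSCmKO+RM against 3mTSCmKO, 4 were called beside 23.6% of all genes: Fst and Smad3 rose and Gdf11 and Acvr2a fell. In CON muscle, 0 of the 9 were called at 9 months, beside 11.8% of all genes, and 0 at 3 months, beside 0.679%. At an unadjusted p under 0.05 those counts were 2 (Fstl3 and Smad3) and 1 (Smad3), and DESeq2 called 0 in both. Cell type markers moved with RM in TSCmKO muscle as well. Of the 8 fiber markers, Ckm, Myh4, Myh1 and Atp2a1 rose and Pvalb fell at both ages, and their summed level was 159183 to 184096 TPM in 9mTSCmKO+RM, above every 9mTSCmKO library. At 3 months the summed level was 146152 to 195288 TPM without RM and 177915 to 198772 TPM with it, which overlap. At 9 months the macrophage markers C1qa and C1qb, the tendon marker Thbs4 and the endothelial marker Kdr fell, and Rgs5 and Notch3 of the smooth muscle and pericyte list and the satellite cell marker Pax7 rose. At 3 months Col1a1, Scx and Cd68 rose. The part of these shifts in the RM values was not tested.

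**Figure D1:**
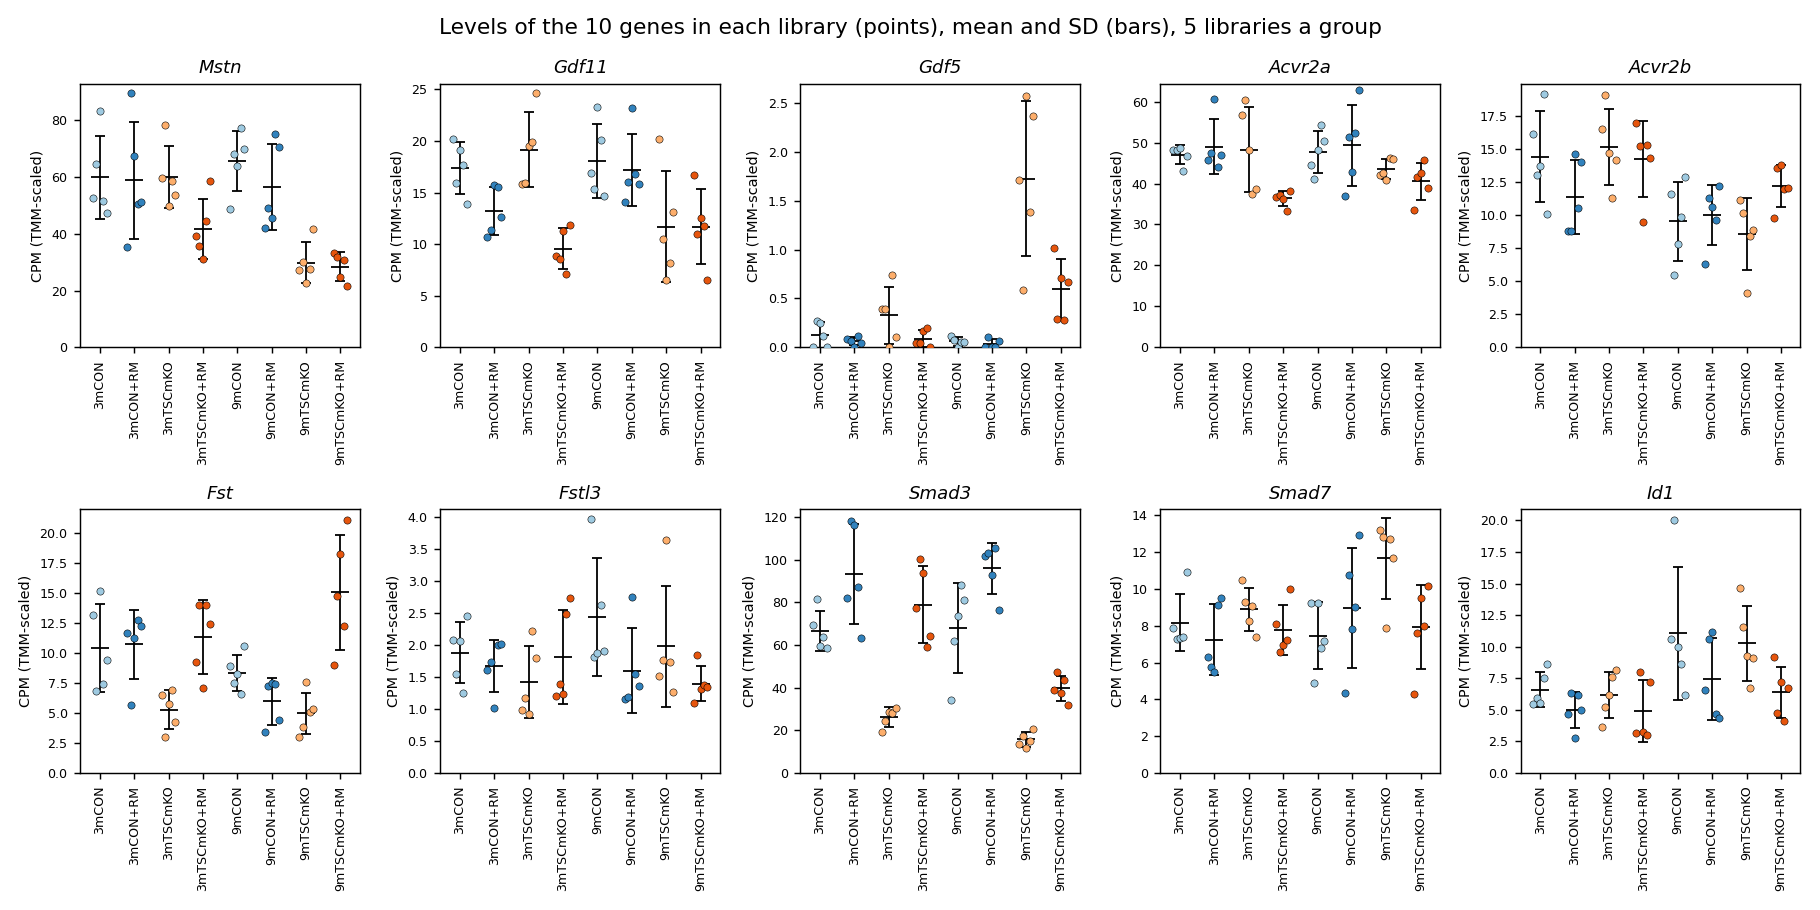
CPM after TMM scaling (y axis, linear, from 0) of each of the 10 genes in the 8 groups (x axis). Points are libraries, the horizontal mark is the mean and the bar is the SD of 5 libraries. The 9mTSCmKO points of Smad3 lie between 11.9 and 20.6 and those of 9mCON between 34.4 and 88.0.

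Mstn (ENSMUSG00000026100, chr1:53061640-53068079, plus strand) encodes myostatin, the main brake on muscle growth made by the fibers themselves. In 9mCON its levels were 48.7, 68.0, 64.1, 77.3 and 69.9 CPM, and in 9mTSCmKO they were 27.2, 30.0, 22.5, 27.5 and 41.7 CPM. Every 9mTSCmKO library was below every 9mCON library. Mstn fell by 1.14 ± 0.21 (SE) on the log2 scale, or 2.20-fold (adjusted p = 3.31e-05).

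At 3 months the genotypes overlapped in Mstn. The 3mCON levels were 52.6, 64.7, 83.3, 51.6 and 47.3 CPM and the 3mTSCmKO levels were 59.7, 78.5, 49.7, 58.7 and 53.6 CPM. A log2 fold change of 0.00 was found, with a 95% interval from -0.41 to 0.41 (adjusted p = 0.998). The difference between the genotype effects at the 2 ages was itself tested as an interaction and was -1.14 ± 0.29 on the log2 scale (adjusted p = 0.0159), in a comparison where 4.94% of all genes were called. Mstn was the only one of the 9 genes called there.

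Mstn in TSCmKO muscle was not called for RM at 9 months. In 9mTSCmKO+RM the levels were 33.3, 31.8, 24.9, 30.8 and 21.6 CPM, within the range of 9mTSCmKO except for 1 library slightly below it. Its log2 fold change was -0.07, with a 95% interval from -0.49 to 0.35 (adjusted p = 0.834). Against 9mCON, Mstn in 9mTSCmKO+RM fell by 1.20 ± 0.21 on the log2 scale (adjusted p = 2.08e-05).

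In 3mTSCmKO+RM the Mstn levels were 39.1, 35.6, 31.1, 44.5 and 58.7 CPM. All but 1 were below every 3mTSCmKO library. The log2 fold change of -0.52 ± 0.20 against 3mTSCmKO was not called (adjusted p = 0.0592), and this depended on the method. DESeq2 called it (-0.52, adjusted p = 0.0496), as did a fit of only the groups compared (adjusted p = 0.0275), and without 3mTSCmKO+RM replicate 5, the highest library, it was -0.67 and was called (adjusted p = 0.0184). In order of mean level, Mstn was highest in 9mCON at 65.6 ± 10.6 CPM (SD, n = 5), and 3mTSCmKO, 3mCON, 3mCON+RM, 9mCON+RM and 3mTSCmKO+RM (41.8 ± 10.6 CPM) followed, each mean closer to the one before it than the larger of their SDs. The step from 3mTSCmKO+RM to 9mTSCmKO exceeded both SDs. 9mTSCmKO at 29.8 ± 7.19 and 9mTSCmKO+RM at 28.5 ± 5.01 CPM were lowest and did not differ beyond their SDs.

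Gdf11 (ENSMUSG00000025352, chr10:128882295-128891718, minus strand) encodes the ligand most like myostatin. By TPM it was the lower of the pair: in 9mCON Mstn had 43.3 ± 8.23 TPM and Gdf11 7.98 ± 1.95 TPM (SD, n = 5). No 31-base stretch of the annotated Mstn transcripts occurred in another listed gene. Of the 4032 stretches in Gdf11, 1 occurred in Slc4a4, so the pair shares no such stretch.

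Gdf11 in 9mCON was at 16.9, 15.4, 23.3, 20.1 and 14.7 CPM, and in 9mTSCmKO at 20.2, 10.5, 6.48, 8.14 and 13.1 CPM. The groups overlapped through 9mTSCmKO replicate 1. Gdf11 fell by 0.62 ± 0.22 on the log2 scale (adjusted p = 0.0210), and the call was lost without 9mCON replicate 3, 9mTSCmKO replicate 3 or 9mTSCmKO replicate 4 (adjusted p up to 0.0854). Fitting only the compared groups also ended it, with a log2 fold change of -0.61 (adjusted p = 0.115).

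Gdf11 fell with RM in TSCmKO muscle at 3 months. In 3mTSCmKO it was at 15.8, 15.9, 19.5, 19.9 and 24.7 CPM, and in 3mTSCmKO+RM at 8.85, 8.61, 11.3, 7.14 and 11.9 CPM. The groups did not overlap. Gdf11 fell by 1.01 ± 0.22 on the log2 scale, or 2.02-fold (adjusted p = 0.000516), and 3mTSCmKO+RM was also below 3mCON, with a log2 fold change of -0.87 ± 0.22 (adjusted p = 0.00364). In 3mCON+RM the levels were 10.7, 11.4, 15.7, 15.5 and 12.6 CPM against 20.2, 15.9, 19.1, 17.7 and 13.9 CPM in 3mCON. That difference of -0.40 ± 0.22 was not called (adjusted p = 0.620), and the interaction of RM and genotype at 3 months, -0.61 ± 0.30, was not called either (adjusted p = 0.339), beside 3.45% of all genes called in it. At 9 months RM left Gdf11 in TSCmKO muscle at a log2 fold change of -0.01, with a 95% interval from -0.45 to 0.44.

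Gdf5 (ENSMUSG00000038259, chr2:155941023-155945367, minus strand), a ligand of the BMP arm, was near the limit of detection in CON muscle. Its estimated counts were 2, 1, 0, 1 and 1 in the 5 libraries of 9mCON and 33, 10, 46, 24 and 54 in those of 9mTSCmKO. The groups did not overlap. The ratio of count rates was 28.4, with a 95% counting interval from 11.9 to 88.6 that covers counting error only. An exact two-sided permutation test of the mean CPM gave p = 0.00794, the smallest that 5 against 5 allows, or 0.0238 adjusted over the 6 Gdf5 comparisons. Leaving out any 1 library kept the ratio between 24.0 and 37.3. With no filter on low counts, edgeR gave a log2 fold change of 4.64 ± 0.69 (adjusted p = 9.73e-07), in a fit that called 24.2% of 22597 genes.

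Gdf5 counts in 9mTSCmKO+RM were 13, 5, 13, 4 and 11, between those groups. Only the library with the lowest count in 9mTSCmKO was within their range. The ratio to 9mTSCmKO was 0.327, with a counting interval from 0.231 to 0.456 (exact permutation p = 0.0317, adjusted 0.0476). Without 9mTSCmKO replicate 3 the exact permutation p was 0.0556. The ratio to 9mCON was 9.29, with a counting interval from 3.70 to 29.9 (exact permutation p = 0.00794).

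At 3 months Gdf5 was low in each group. The counts were 0, 3, 6, 4 and 0 in 3mCON and 6, 6, 0, 23 and 3 in 3mTSCmKO. The ranges overlapped, and 3mTSCmKO replicate 4 held 23 of the 38 counts of its group. The ratio of 2.64 (counting interval 1.38 to 5.40) had an exact permutation p of 0.230, and without that library it was 1.46. In 3mTSCmKO+RM the counts were 1, 1, 3, 5 and 0, in 3mCON+RM 1, 1, 0, 4 and 1, and in 9mCON+RM 0, 2, 0, 0 and 1. The ratio of 3mTSCmKO+RM to 3mTSCmKO was 0.270 (counting interval 0.120 to 0.552, exact permutation p = 0.119). Without 3mTSCmKO replicate 4 that ratio was 0.488. From 3mTSCmKO to 9mTSCmKO the ratio was 5.08 (counting interval 3.55 to 7.43, exact permutation p = 0.0159), and without 3mTSCmKO replicate 4 it was 9.18.

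**Figure D2:**
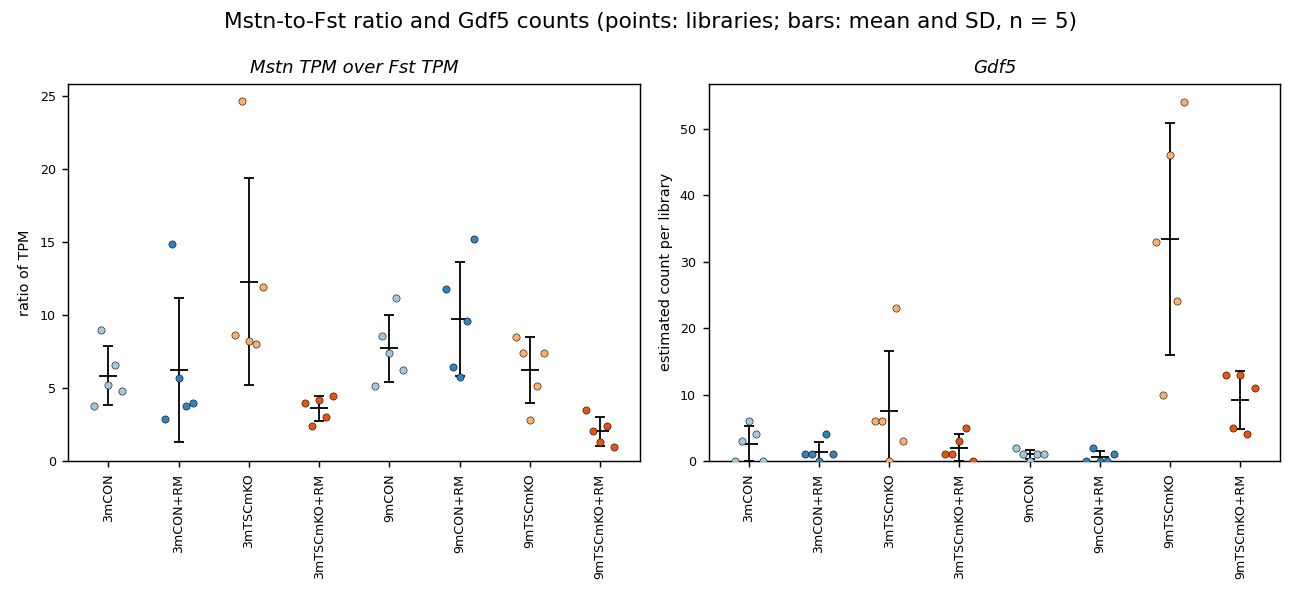
Left, the ratio of Mstn TPM to Fst TPM in each library (y axis, linear, from 0); right, the estimated Gdf5 count in each library (y axis, linear, from 0). Points are libraries of the 8 groups on the x axis, with mean and SD of 5; the 9mTSCmKO counts run from 10 to 54 and the 9mCON counts from 0 to 2.

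Neither type II receptor was called for genotype at either age. Acvr2a, which binds activins, myostatin and some BMPs, was at 44.5, 41.1, 48.2, 54.3 and 50.4 CPM in 9mCON and 42.1, 42.5, 40.9, 46.2 and 45.9 CPM in 9mTSCmKO. The ranges overlapped. The log2 fold change was -0.13, with a 95% interval from -0.38 to 0.11 (adjusted p = 0.403). At 3 months it was 0.04, with an interval from -0.21 to 0.28. For Acvr2b the genotype values were -0.16 at 9 months (95% interval -0.61 to 0.28) and 0.05 at 3 months.

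Acvr2a fell with RM in TSCmKO muscle at 3 months. Its levels were 56.7, 60.5, 48.2, 37.5 and 38.5 CPM in 3mTSCmKO and 36.8, 37.3, 36.3, 33.2 and 38.2 CPM in 3mTSCmKO+RM. The treated libraries were close together, and 1 of them overlapped the lower end of the untreated ones. Acvr2a fell by 0.41 ± 0.12 on the log2 scale (adjusted p = 0.0116). Without 3mTSCmKO replicate 2 the call was lost (log2 fold change -0.31, adjusted p = 0.0677), and limma on log2(TPM + 1) gave -0.35 (adjusted p = 0.107).

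Acvr2b encodes the other activin type II receptor, and it fell with age in TSCmKO muscle. In 3mTSCmKO it was at 16.5, 19.1, 14.6, 11.3 and 14.2 CPM and in 9mTSCmKO at 11.1, 10.2, 4.08, 8.43 and 8.88 CPM. The groups did not overlap. Acvr2b fell by 0.82 ± 0.22 on the log2 scale (adjusted p = 0.00343), in a comparison that called 4 of the 9 genes and 37.4% of all genes. With insert size as a term, fitted without 9mTSCmKO+RM replicate 5, whose label gives no insert size, it was -0.85 and not called (adjusted p = 0.0686). Markers of other cell types fell in the same comparison: 5 of 6 tendon, 4 of 6 fibro-adipogenic, 4 of 4 adipocyte, 3 of 4 smooth muscle and pericyte and 3 of 5 endothelial markers, and 3 of 8 fiber markers. The summed tendon level was 108 to 332 TPM in 3mTSCmKO and 43.4 to 90.1 TPM in 9mTSCmKO. Their part in the age values was not tested.

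In CON muscle the Acvr2b levels were 16.1, 13.01, 13.7, 19.2 and 10.1 CPM at 3 months and 11.6, 5.43, 7.80, 9.88 and 12.9 CPM at 9 months. The ranges overlapped, and the log2 fold change of -0.60 ± 0.22 was not called (adjusted p = 0.151). The interaction of genotype and age for Acvr2b, -0.22 ± 0.31, was not called (adjusted p = 0.747). Of the 9 genes, 0 were called for age in CON muscle, beside 1.02% of all genes. Acvr2b and Id1 had an unadjusted p under 0.05 there, and DESeq2 called 0. Without 9mCON replicate 5, Acvr2b was called (log2 fold change -0.73, adjusted p = 0.0481). RM in 9mTSCmKO left Acvr2b at 9.78, 13.5, 13.8, 11.9 and 12.01 CPM, a log2 fold change of 0.52 ± 0.22 that was not called (adjusted p = 0.0680). Without 9mTSCmKO replicate 1 it was called (adjusted p = 0.0458).

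Fst (ENSMUSG00000021765, chr13:114452290-114458951, minus strand) encodes follistatin. It was at 13.2, 6.82, 15.2, 7.38 and 9.38 CPM in 3mCON and 6.52, 3.00, 5.71, 6.94 and 4.25 CPM in 3mTSCmKO. The genotypes overlapped by 1 library. Fst fell by 0.97 ± 0.27 on the log2 scale, or 1.97-fold (adjusted p = 0.00784).

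At 9 months the genotypes overlapped also. Fst was at 8.92, 7.47, 8.20, 6.55 and 10.5 CPM in 9mCON and 3.02, 3.82, 7.54, 5.08 and 5.34 CPM in 9mTSCmKO. The highest 9mTSCmKO library, replicate 3, lay within the 9mCON range. Fst fell by 0.75 ± 0.27 on the log2 scale (adjusted p = 0.0288). The call was lost without 9mCON replicate 1, 9mCON replicate 5, 9mTSCmKO replicate 1 or 9mTSCmKO replicate 2 (adjusted p up to 0.0971), and limma on log2(TPM + 1) gave -0.58 (adjusted p = 0.0818).

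RM raised Fst in TSCmKO muscle. In 9mTSCmKO+RM it was at 9.00, 14.7, 18.2, 12.2 and 21.0 CPM, with every library above every 9mTSCmKO library. Fst rose by 1.60 ± 0.27 on the log2 scale, or 3.04-fold (adjusted p = 1.95e-05). In 3mTSCmKO+RM it was at 9.23, 13.99, 7.06, 13.975 and 12.4 CPM, again without overlap with 3mTSCmKO, and the log2 fold change was 1.10 ± 0.27 (adjusted p = 0.00222).

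The treated 9-month mice went past the untreated controls. Fst in 9mTSCmKO+RM was 1.80-fold above 9mCON (log2 fold change 0.85 ± 0.27, adjusted p = 0.0124), with 1 treated library inside the 9mCON range. Without 9mTSCmKO+RM replicate 5 that value was 0.70 and was not called (adjusted p = 0.0511), and with insert size as a term it was 0.67 (adjusted p = 0.0645). At 3 months the same comparison gave 0.12, with a 95% interval from -0.41 to 0.65.

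Fst was not called for RM in CON muscle. The 9mCON+RM levels were 3.38, 7.25, 7.52, 7.39 and 4.39 CPM, at or below the middle of the 9mCON range, and the log2 fold change was -0.48 ± 0.28 (adjusted p = 0.290). The 3mCON+RM levels were 11.6, 5.68, 11.2, 12.7 and 12.3 CPM, with a log2 fold change of 0.04 (95% interval -0.49 to 0.58). The interaction of RM and genotype at 9 months was 2.08 ± 0.39 on the log2 scale (adjusted p = 0.00116), beside 4.87% of all genes called in it. Fst was the only one of the 9 genes called there. At 3 months the interaction of 1.05 ± 0.38 was not called (adjusted p = 0.128).

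The balance of myostatin and follistatin transcripts can be read per length as the ratio of their TPM. It was 6.25 ± 2.28 in 9mTSCmKO and 2.04 ± 0.995 in 9mTSCmKO+RM (SD, n = 5), and 12.3 ± 7.10 in 3mTSCmKO and 3.61 ± 0.869 in 3mTSCmKO+RM. In 3mTSCmKO the ratio ran from 7.99 to 24.7 and in 3mTSCmKO+RM from 2.41 to 4.48, without overlap. In 9mTSCmKO it ran from 2.82 to 8.50 and in 9mTSCmKO+RM from 0.970 to 3.50, and these overlapped. Untreated CON muscle had 5.86 ± 2.01 at 3 months and 7.71 ± 2.31 at 9 months. The ratio uses the same values as the single genes and was given no test.

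Fstl3, a relative of follistatin, had low levels throughout, at 1.39 ± 0.275 to 2.43 ± 0.913 CPM (group means ± SD, n = 5). In 9mCON it was at 3.96, 1.81, 1.87, 2.62 and 1.91 CPM, in 9mTSCmKO at 1.51, 1.77, 3.63, 1.73 and 1.27 CPM, and in 9mTSCmKO+RM at 1.10, 1.84, 1.31, 1.38 and 1.34 CPM. The groups overlapped. Of the pairwise comparisons, it was called in 9mTSCmKO+RM against 9mCON alone, where it fell by 0.80 ± 0.31 on the log2 scale (adjusted p = 0.0432). That comparison called 6 of the 9 genes and 31.9% of all genes. In it 5 of 6 fibro-adipogenic, 5 of 6 tendon and 3 of 5 macrophage markers fell, and the summed fibro-adipogenic level was 267 to 587 TPM in 9mTSCmKO+RM and 650 to 1273 TPM in 9mCON, and their part in its values was not tested. The call was lost in 6 of 10 fits that left out 1 library (adjusted p up to 0.207), and under the replicate block (adjusted p = 0.0511), no filter, a fit of only the groups compared, insert size as a term and both TPM scales (adjusted p up to 0.126).

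Smad3 (ENSMUSG00000032402, chr9:63646767-63757994, minus strand) encodes a SMAD through which, as through SMAD2, myostatin and activins regulate genes. In 9mCON it was at 34.4, 61.7, 73.6, 88.0 and 81.3 CPM and in 9mTSCmKO at 13.8, 17.3, 11.9, 15.2 and 20.6 CPM. The groups were far apart, with the lowest 9mCON library, replicate 1, still above every 9mTSCmKO library. Smad3 fell by 2.10 ± 0.20 on the log2 scale, or 4.30-fold (adjusted p = 4.81e-11).

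Smad3 fell at 3 months too. It was at 69.3, 81.7, 59.4, 63.9 and 58.5 CPM in 3mCON and 19.1, 24.2, 28.5, 28.2 and 30.6 CPM in 3mTSCmKO, without overlap. Smad3 fell by 1.34 ± 0.19 on the log2 scale, or 2.54-fold (adjusted p = 1.13e-06). From 3 to 9 months Smad3 fell by a further 0.73 ± 0.19 on the log2 scale in TSCmKO muscle (adjusted p = 0.00303). It was not called in CON muscle, at 0.03 (95% interval -0.35 to 0.41). With insert size as a term the age change in TSCmKO muscle was -0.25 and was not called (adjusted p = 0.511). The interaction of genotype and age, -0.76 ± 0.27, was not called (adjusted p = 0.0921), but it was when 9mCON replicate 1 or 9mTSCmKO replicate 5 was left out (adjusted p down to 0.0131).

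RM raised Smad3 in TSCmKO muscle at both ages. In 9mTSCmKO+RM it was at 39.0, 47.1, 37.4, 43.4 and 31.9 CPM, above every 9mTSCmKO library. Smad3 rose by 1.33 ± 0.19 on the log2 scale (adjusted p = 1.51e-06). It remained 1.71-fold below 9mCON (log2 fold change -0.77 ± 0.19, adjusted p = 0.00160). The groups overlapped through 9mCON replicate 1 and were otherwise apart.

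At 3 months treated TSCmKO muscle reached the control range. In 3mTSCmKO+RM Smad3 was at 77.1, 100.4, 93.7, 59.2 and 64.1 CPM, which was 1.59 ± 0.19 above 3mTSCmKO on the log2 scale (adjusted p = 5.53e-08). Against 3mCON the difference was 0.25, with a 95% interval from -0.13 to 0.62 (adjusted p = 0.419).

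Smad3 was also higher in CON muscle given RM, though not by enough to be called. The levels were 81.9, 118, 116, 86.9 and 63.5 CPM in 3mCON+RM and 102, 103, 92.5, 105 and 76.5 CPM in 9mCON+RM. Both ranges overlapped those of the untreated controls. The log2 fold changes were 0.49 ± 0.19 (adjusted p = 0.316) and 0.50 ± 0.19 (adjusted p = 0.0739). The latter was called when 9mCON replicate 4 was left out (0.61, adjusted p = 0.0365) and with insert size as a term (0.57, adjusted p = 0.0232).

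The answer of Smad3 to RM was larger in TSCmKO than in CON muscle at 3 months, with an interaction of 1.10 ± 0.26 on the log2 scale (adjusted p = 0.0121). At 9 months the interaction was 0.83 ± 0.27 (adjusted p = 0.0595). DESeq2 gave 0.82 (adjusted p = 0.0424) and upper-quartile scaling 0.86 (adjusted p = 0.0437), so that call depends on the method.

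**Figure D3:**
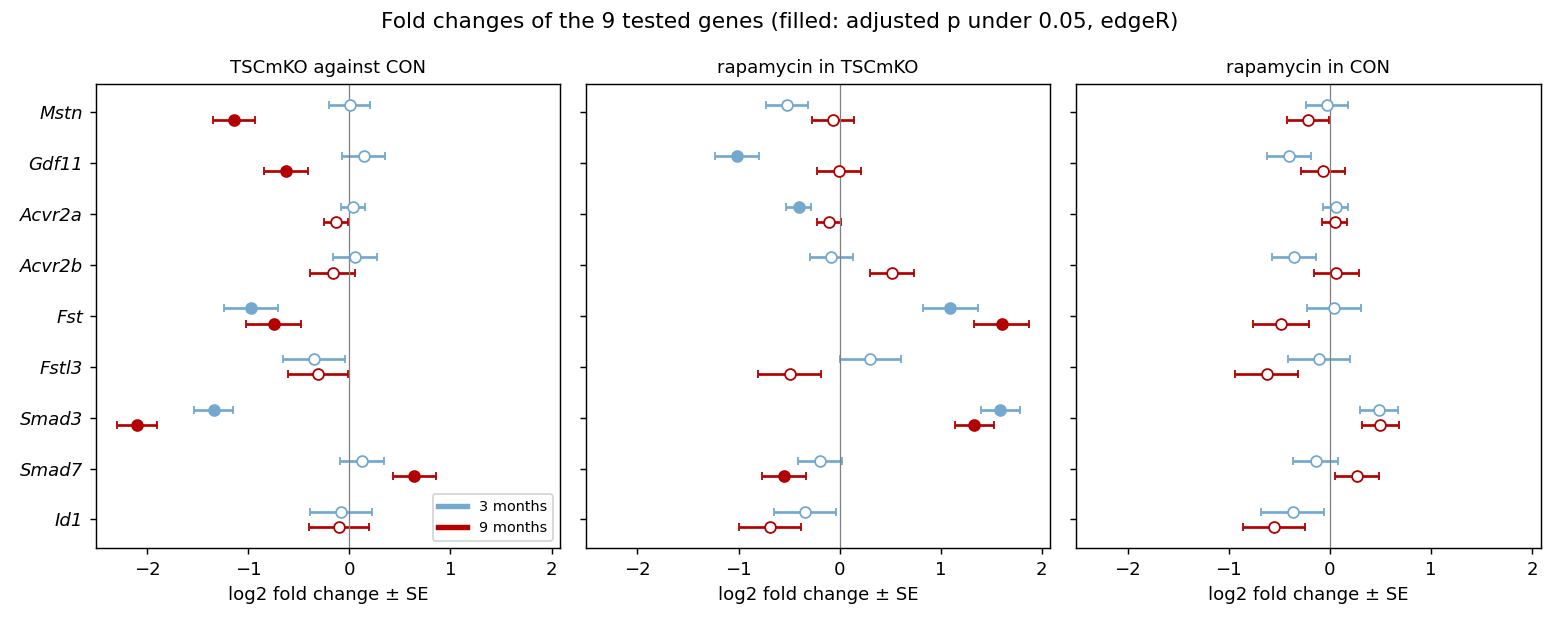
Log2 fold change (x axis) with its SE for the 9 tested genes (y axis) in TSCmKO against CON, RM in TSCmKO and RM in CON muscle, at 3 months (blue) and 9 months (red). Filled points had an adjusted p under 0.05 in edgeR. Smad3 and Fst lie left of 0 for genotype and right of 0 for RM in TSCmKO muscle.

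Smad7 encodes an inhibitory SMAD that blocks activated receptors. It was at 9.21, 4.91, 9.26, 6.77 and 7.18 CPM in 9mCON and 13.2, 12.8, 7.88, 12.7 and 11.7 CPM in 9mTSCmKO. Only 9mTSCmKO replicate 3 was within the 9mCON range. Smad7 rose by 0.64 ± 0.22 on the log2 scale, or 1.56-fold (adjusted p = 0.0176), and without 9mCON replicate 2 the value was 0.53 (adjusted p = 0.0571).

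With RM the Smad7 levels in 9mTSCmKO+RM were 4.30, 7.61, 9.52, 7.996 and 10.2 CPM, below 4 of the 5 untreated libraries. The log2 fold change of -0.55 ± 0.22 was just past the threshold (adjusted p = 0.0463). It was lost in 7 of 10 fits that left out 1 library (adjusted p up to 0.138), and under 5 further settings: upper-quartile scaling, no filter, a fit of the groups compared, and both TPM-based fits. At 3 months Smad7 was not called for genotype (0.13, 95% interval -0.31 to 0.56) or for RM in TSCmKO muscle (-0.19, 95% interval -0.63 to 0.24).

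Id1 encodes an inhibitor of basic helix-loop-helix factors and stands for the output of the BMP arm. It was at 10.6, 19.997, 9.99, 8.62 and 6.15 CPM in 9mCON and 14.7, 11.5, 9.27, 6.75 and 9.10 CPM in 9mTSCmKO, with full overlap. The log2 fold change was -0.10, with a 95% interval from -0.71 to 0.51 (adjusted p = 0.821).

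In 9mTSCmKO+RM Id1 was at 9.15, 4.73, 7.18, 4.14 and 6.71 CPM. Against 9mTSCmKO the log2 fold change of -0.69 ± 0.31 was not called (adjusted p = 0.0811). That log2 fold change was called without 9mTSCmKO replicate 4 or 9mTSCmKO+RM replicate 1 (adjusted p down to 0.0419). Against 9mCON it was -0.79 ± 0.31 (adjusted p = 0.0462), a call lost in 7 of 10 fits that left out 1 library (adjusted p up to 0.252), and under the replicate block (adjusted p = 0.0621), no filter, a fit of only the groups compared, insert size as a term and both TPM scales (adjusted p up to 0.0768). Id1 in 3-month groups had means from 4.91 ± 2.45 to 6.61 ± 1.39 CPM (SD, n = 5), and it was not called in the comparisons within 3 months. From 3mTSCmKO to 9mTSCmKO the Id1 log2 fold change of 0.72 ± 0.30 was not called (adjusted p = 0.0568). DESeq2 called it (adjusted p = 0.0387), as did upper-quartile scaling (0.0476), a fit of only the groups compared (0.0383) and limma on log2(TPM + 1) (0.0347) and log2(TPM + 0.1) (0.0383). In CON muscle the Id1 age change was much the same, 0.74 ± 0.31, and was not called (adjusted p = 0.200). Its genotype by age interaction was -0.02, with a 95% interval from -0.89 to 0.86 (adjusted p = 0.992).

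The genes whose levels ran most like those of each member were found by Pearson's r of log2 CPM over all 40 libraries, among 9598 genes with a mean of at least 5 CPM. These r describe libraries that share groups, so part of each r is the difference between groups. Smad3 ran most like Drosha (r = 0.937, and 0.699 after removing group means) and Smyd1 (0.915 and 0.572). Mstn ran most like Clcn1, the muscle chloride channel (0.849 and 0.422), and Slc2a4, the insulin-responsive glucose transporter (0.840 and 0.544). Fst ran most like Itga9 (0.768 and 0.744) and Smad7 most like Cep97 (0.788 and 0.795). Acvr2b ran most like Ncor1 (0.811 and 0.768) and Acvr2a most like Samd8 (0.789 and 0.726). The highest r for Gdf11 was with Szrd1 (0.709), for Fstl3 with Plac9b (0.639) and for Id1 with Mrpl12 (0.759).

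A wider list of 82 genes of the same pathways was read beside the members, of which 77 were in the table and 66 passed the filter. In 9mTSCmKO against 9mCON, 9 of the 66 rose and 18 fell, or 40.9%, close to the 37.9% of all genes. Their median log2 fold change was -0.19. In 3mTSCmKO against 3mCON, 8 rose and 7 fell, or 22.7% beside 19.8% of all genes. RM in TSCmKO muscle raised 6 and lowered 11 at 9 months, or 25.8% beside 32.6% of all genes, and raised 6 and lowered 10 at 3 months, or 24.2% beside 23.6%. In CON muscle it raised 1 and lowered 10 at 9 months, or 16.7% beside 11.8% of all genes.

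**Figure D4:**
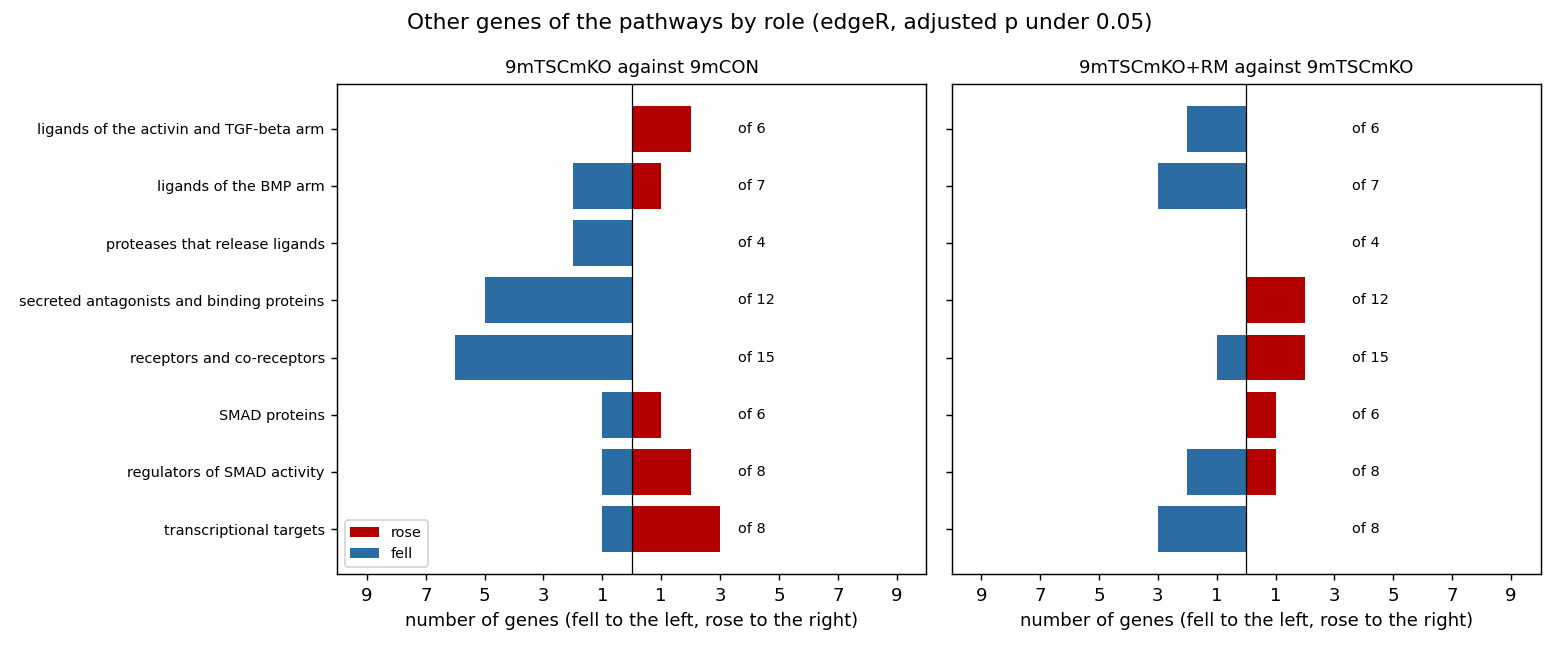
Number of pathway genes called lower (bars to the left) or higher (bars to the right) by role (y axis), in 9mTSCmKO against 9mCON and in 9mTSCmKO+RM against 9mTSCmKO; the number tested stands beside each row. Of 15 receptors and co-receptors, 6 fell and 0 rose with genotype, which is 40%, beside 18.9% of all genes called lower and 37.9% called in either direction.

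Among the other ligands, Inhbb, which encodes the activin B subunit, was at 0.633 ± 0.217 CPM in 9mCON and 1.86 ± 0.931 CPM in 9mTSCmKO (SD, n = 5). It rose by 1.58 ± 0.34 on the log2 scale (adjusted p = 0.000283) and fell by 1.37 ± 0.33 with RM in 9mTSCmKO (adjusted p = 0.00145). Its genotype by age interaction of 1.68 ± 0.46 was called (adjusted p = 0.0245), as was its RM by genotype interaction at 9 months, -1.86 ± 0.49 (adjusted p = 0.0215). Inhba, the activin A subunit, was not called for genotype at 9 months (0.41 ± 0.22, adjusted p = 0.126). In the BMP arm Bmp4 rose by 0.69 ± 0.25 (adjusted p = 0.0264), and Bmp3, at 1.39 ± 0.376 CPM in 9mTSCmKO and 3.26 ± 0.833 CPM in 9mCON, fell by 1.25 ± 0.26 (adjusted p = 0.000220). Tgfb1 was called at 3 months alone, where it rose by 0.48 ± 0.17 (adjusted p = 0.0479).

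Of the 4 tested proteases that release ligands, Bmp1 and Pcsk6 fell at 9 months, where 18.9% of all genes were called lower. Bmp1, which cleaves the inhibitory myostatin propeptide, fell by 1.18 ± 0.19 on the log2 scale (adjusted p = 4.62e-06), and Pcsk6, a proprotein convertase, by 1.43 ± 0.32 (adjusted p = 0.000522). RM lowered both in CON muscle at 9 months, with log2 fold changes of -0.78 ± 0.19 for Bmp1 (adjusted p = 0.00536) and -1.23 ± 0.32 for Pcsk6 (adjusted p = 0.00965). In TSCmKO muscle the RM values had the other sign: Bmp1 rose by 0.64 ± 0.18 at 3 months (adjusted p = 0.00885) and was not called at 9 months (0.45 ± 0.19, adjusted p = 0.0685), and Pcsk6 was not called at either age. The RM by genotype interaction at 9 months was called for both, at 1.22 ± 0.27 for Bmp1 (adjusted p = 0.00552) and 1.70 ± 0.46 for Pcsk6 (adjusted p = 0.0232). Markers of several other cell types moved in the same comparisons. The summed level of the 6 fibro-adipogenic marker genes was 650 to 1273 TPM in 9mCON, 273 to 654 TPM in 9mTSCmKO and 105 to 485 TPM in 9mCON+RM, and 4 of 6 fell in 9mTSCmKO and 6 of 6 with RM in 9mCON. The summed level of the 6 tendon markers was 57.4 to 382 TPM in 9mCON, 43.4 to 90.1 TPM in 9mTSCmKO and 23.0 to 53.3 TPM in 9mCON+RM, and 4 and 5 of them fell. In 9mTSCmKO 3 of 4 smooth muscle and pericyte markers and 2 of 4 adipocyte markers fell, and with RM in 9mCON 4 of 5 macrophage markers fell. In each group, 0 of the fibro-adipogenic and tendon markers were at 0 in all libraries. The part of these cells in the results was not tested.

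Of the 12 tested antagonists and binding proteins, 5 fell and 0 rose in 9mTSCmKO, which is 41.7% of them, beside 18.9% of all genes called lower and 37.9% called in either direction. Chrdl1, a BMP antagonist, fell by 1.47 ± 0.36 (adjusted p = 0.00155), and Fstl1 by 0.78 ± 0.23 (adjusted p = 0.00704). Dcn, one of the fibro-adipogenic markers, also fell.

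Wfikkn2 encodes a secreted binder of myostatin and GDF11, and it fell with genotype and rose with RM in TSCmKO muscle at both ages. The mean was 19.5 ± 3.90 CPM in 9mCON and 9.19 ± 2.96 CPM in 9mTSCmKO, and with RM the latter stood at 19.0 ± 2.84 CPM. It fell by 1.08 ± 0.17 with genotype (adjusted p = 1.83e-06) and rose by 1.04 ± 0.17 with RM in 9mTSCmKO (adjusted p = 6.03e-06). At 3 months it fell by 0.60 ± 0.16 (adjusted p = 0.00618) and rose by 0.67 ± 0.16 with RM in 3mTSCmKO (adjusted p = 0.00198). The difference of 9mTSCmKO+RM from 9mCON was -0.04 ± 0.16 (adjusted p = 0.887).

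Of the 15 tested receptors and co-receptors, 6 fell and 0 rose in 9mTSCmKO: Acvr1, Acvrl1, Bmpr1a, Bmpr1b, Rgma and Hfe2. That is 40% of them, beside 18.9% of all genes called lower and 37.9% called in either direction. Bmpr2, the BMP type II receptor, was not called (-0.09 ± 0.24, adjusted p = 0.793). Of the 5 endothelial marker genes, 2 fell in the same comparison, Pecam1 and Tie1, and the summed level of the 5 was 102 to 209 TPM in 9mCON and 98.2 to 197 TPM in 9mTSCmKO, with 0 of them at 0 in all libraries of a group. Their part in the receptor values was not tested. Bmpr1b, a type I receptor to which GDF5 binds, was at 12.1 ± 4.16 CPM in 9mCON and 3.69 ± 0.744 CPM in 9mTSCmKO. It fell by 1.72 ± 0.28 at 9 months (adjusted p = 4.48e-06) and by 2.15 ± 0.28 at 3 months (adjusted p = 2.39e-07), and RM in 9mTSCmKO left it at 3.87 ± 1.38 CPM (log2 fold change 0.09 ± 0.29, adjusted p = 0.846).

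Smad2, which carries the same signal as Smad3, went the other way. It rose by 0.34 ± 0.13 at 9 months (adjusted p = 0.0299) and by 0.44 ± 0.13 at 3 months (adjusted p = 0.00994). Smad6, the inhibitory SMAD of the BMP arm, was not called at 9 months (-0.28 ± 0.21, adjusted p = 0.309).

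Of the 8 tested targets, 3 rose and 1 fell in 9mTSCmKO, where 19.1% of all genes were called higher and 18.9% lower, and 8 genes are too few to set this share apart. Fbxo30, a ubiquitin ligase that the BMP arm holds down, was at 23.9 ± 4.25 CPM in 9mCON and 42.7 ± 4.02 CPM in 9mTSCmKO. It rose by 0.84 ± 0.14 (adjusted p = 1.33e-05) and fell by 0.56 ± 0.14 with RM in 9mTSCmKO (adjusted p = 0.00243). Id2 rose by 0.86 ± 0.27 (adjusted p = 0.0123), and Id3 was not called (0.17 ± 0.24, adjusted p = 0.608).

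Across the comparison of treated TSCmKO with untreated CON muscle, Gdf11 was called at both ages. At 9 months its log2 fold change was -0.63 ± 0.22 (adjusted p = 0.0238), a call lost without 9mCON replicate 3, 9mCON replicate 4 or 9mTSCmKO+RM replicate 5 (adjusted p up to 0.0937) and with insert size as a term (-0.47, adjusted p = 0.105). At 3 months 2 of the 9 genes were called, Gdf11 and Acvr2a, beside 16.7% of all genes, and the Acvr2a value of -0.37 ± 0.12 (adjusted p = 0.0295) was lost in 7 of 10 fits that left out 1 library (adjusted p up to 0.0803), with no filter and on both TPM scales. These comparisons share their control libraries with those of untreated TSCmKO muscle.

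By length-scaled level, the order of the 10 genes in 9mCON was Mstn at 43.3 ± 8.23 TPM, Smad3 at 28.0 ± 10.8, Id1 at 20.4 ± 6.96 and Acvr2a at 19.2 ± 3.39 TPM, then Gdf11, Acvr2b at 6.55 ± 2.69, Fst at 5.88 ± 1.54, Smad7 at 4.33 ± 1.28, Fstl3 at 2.55 ± 1.04 and Gdf5 at 0.0453 ± 0.0329 TPM (mean ± SD, n = 5). Neighbours in that order differed by less than the larger of their SDs from Smad3 to Acvr2a and from Gdf11 to Fst.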

How the data were processed

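The deposited tables hold estimated counts per gene and TPM. Per the study's methods and the submitters' processing notes, the authors isolated poly(A) RNA, sequenced it single-end with strand kept, trimmed reads with cutadapt 1.9.1 and assigned them to GRCm38 transcripts with kallisto 0.43.1, sharing a read among the transcripts it matched and summing per gene. The TPM were derived by the authors from the same counts. From the counts, rounded to whole numbers, edgeR 4.0.16 in R 4.3.3 fitted 8 group means to 40 libraries with TMM scaling and a robust quasi-likelihood test, over 13543 genes with 1 CPM in 5 libraries (at least 99.8% of each library's counts), and 13 contrasts (10 pairwise, 3 interactions). Tests were two-sided, with Benjamini-Hochberg adjustment over all genes and a threshold of 0.05. Standard errors came from the F statistics. A read that matches several transcripts is split among them: of 31-base stretches in the 10 genes, 1 of 4032 in Gdf11 and 8 of 4706 in Fst occurred in other genes, and 0 in the other members. The study's text limits the reference to protein-coding transcripts, but the tables also list non-coding genes such as Meg3, so the transcript set is uncertain. The stretches were counted in GENCODE M21 transcripts of the listed genes and may differ from those the authors used.

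The genes, lists and tests were chosen with earlier results of these data known. Values named are those of all 10 genes, of Inhba, Inhbb, Tgfb1, Smad2, Smad6, Id2, Id3, Fstl1, Bmp4, Fbxo30 and Wfikkn2, and of the 8 pathway genes with the largest called change in 9mTSCmKO against 9mCON at a mean of 1 CPM or more, of which some are not reported here. Dcn, Bmpr2, Acvr1, Acvrl1, Bmpr1a, Rgma and Hfe2 were named after their values were seen. Alternatives were DESeq2 1.42.0, upper-quartile scaling, no filter, the compared groups alone, a replicate block, insert size as a term, limma 3.58.1 on log2(TPM + 1) or log2(TPM + 0.1), and leaving out each library. Scripts were tested on simulated data.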

Additional observations from a re-analysis of the deposited data

Results flagged for a closer look

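In 6 of 80 groups of 5 libraries, 1 library lay apart from the others of its group by Dixon's criterion (gap over range above 0.71), and chance alone flags about 1 in 20. Acvr2a was at 60.7 CPM in 3mCON+RM replicate 3, with the next library at 47.5 CPM. Fst was at 5.68 CPM in 3mCON+RM replicate 2, with the next at 11.2 CPM. Fstl3 was at 2.75 CPM in 9mCON+RM replicate 3 (next 1.55 CPM) and at 3.63 CPM in 9mTSCmKO replicate 3 (next 1.77 CPM). Smad7 was at 10.9 CPM in 3mCON replicate 5 (next 7.89 CPM) and at 7.88 CPM in 9mTSCmKO replicate 3 (next 11.7 CPM).

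An effect differed between groups by a tested interaction for 3 of the 9 tested members, each in edgeR's quasi-likelihood test. The genotype effect on Mstn differed between ages by -1.14 on the log2 scale (adjusted p = 0.0159). The RM effect on Fst differed between genotypes at 9 months by 2.08 (adjusted p = 0.00116), and that on Smad3 at 3 months by 1.10 (adjusted p = 0.0121). These 3 calls held in every fit that left out 1 library.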

How the results depend on the processing

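No called value of the 9 tested genes changed sign under any alternative. Leaving out 1 library at a time, the number of the 9 genes called ran from 4 to 5 for 9mTSCmKO against 9mCON, 2 to 2 for 3mTSCmKO against 3mCON, 2 to 3 and 3 to 5 for RM in TSCmKO muscle at 9 and 3 months, 0 to 1 and 0 to 0 for RM in CON muscle, 2 to 6 and 1 to 2 for treated TSCmKO against untreated CON muscle, 0 to 1 and 4 to 5 for age in CON and TSCmKO muscle, 1 to 2 for genotype by age, and 1 to 2 and 1 to 1 for RM by genotype at 9 and 3 months. For 9mTSCmKO+RM against 9mCON the lowest count, 2, came without 9mTSCmKO+RM replicate 5. With insert size as a term the count was 1 for RM in 9mCON muscle, 2 for 9mTSCmKO+RM against 9mCON and 1 for age in TSCmKO muscle. For 3mTSCmKO+RM against 3mCON it was 1 with no filter and on both TPM scales. For RM by genotype at 9 months it was 2 with DESeq2, upper-quartile scaling or insert size, through Smad3. The cause was not tested.

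Same-numbered libraries showed no regular pairing: their correlations ran from -0.363 to 0.289, and in 0 comparisons did all 5 pairs exceed 0.1. Such correlations cannot show whether groups shared litters. The replicate block moved the count from 6 to 4 for 9mTSCmKO+RM against 9mCON (Fstl3 -0.81, adjusted p = 0.0511; Id1 -0.74, adjusted p = 0.0621) and changed no other count of the 9 genes.

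Over all genes, fitting only the compared groups called 2710 in place of 5133 for 9mTSCmKO against 9mCON, 2512 in place of 4410 for RM in 9mTSCmKO, 580 in place of 1604 for RM in 9mCON, 378 in place of 92 for RM in 3mCON, 3740 in place of 2260 for 3mTSCmKO+RM against 3mCON, 34 in place of 138 for age in CON muscle, and 310, 201 and 1178 in place of 669, 660 and 467 for the 3 interactions. For RM in 3mCON, DESeq2 called 181 and no filter 38, and the count was 35 to 55 without 3mCON replicate 1, 3, 4 or 5 or without 3mCON+RM replicate 2, 3 or 4. For age in CON muscle, DESeq2 called 375, no filter 83, insert size 26 and log2(TPM + 1) 217, and the count was 942 without 9mCON replicate 5, 30 without 9mCON replicate 2 and 47 to 74 without 3mCON replicate 1, 2 or 3 or 9mCON replicate 1 or 3. Insert size as a term called 1701 in place of 5064 for age in TSCmKO muscle, and no filter 435 in place of 660 for RM by genotype at 9 months. Upper-quartile scaling moved the share of higher calls for RM in 3mTSCmKO from 44.9% to 55.7%. On log2(TPM + 1) that share was 55.2%, and it moved from 50.3% to 61.3% for 9mTSCmKO against 9mCON, 42.5% to 31.2% for RM in 9mCON, 49.3% to 61.8% for 9mTSCmKO+RM against 9mCON, 66.7% to 28.6% for age in CON muscle, 60.8% to 84.7% for genotype by age and 39.4% to 51.2% for RM by genotype at 3 months. The median of all genes moved by over 0.1 only for age in CON muscle, from 0.01 to -0.10. At 0 to 2 counts per 9mCON library, counting error limits the Gdf5 ratios.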
